A study of Mus musculus with 28 samples.

Results

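*Il2*, *Il3*, *Il21*, *Csf2*, *Tnf*, *Lta*, *Lif* and *Osm* encode cytokines that T cells make soon after their antigen receptor is engaged. These 8 genes were chosen by symbol, and each was found as 1 of the 24089 genes of the expression table. They were followed over 24 RNA-seq libraries in 8 groups of 3, which are 2 genotypes in 4 cultures. Naïve CD4+ CD62L+ T cells of mouse spleen and lymph nodes were stimulated with anti-CD3 and anti-CD28 in every group and received medium alone (control), TGF-β alone, IL-4 alone, or TGF-β + IL-4. The last, called the combination here, is the culture that the study used to form Th9 cells (IL-9-producing T helper cells). All mice carried floxed *Tgfbr1* (*Tgfbr1* f/f) and the *Ert2-cre* transgene on a C57BL/6 background. Mice given oil are called WT and mice given tamoxifen are called KO, so the loss of *Tgfbr1*, the type I TGF-β receptor, and the tamoxifen treatment cannot be told apart. Per the study's methods the mice were young adults of both sexes. The promoter of *Ert2-cre* and the time in culture of the RNA-seq cells were not given in the sources used here. Open chromatin was mapped by DNase-seq in 1 library each of control cells and of cells given the combination, for either genotype.

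The columns of the expression table were read by position, in the order of the library numbers, and not by their headings. Under that order the 12 WT libraries come first and the 12 KO libraries follow. Each block of 4 columns holds 1 replicate number, with control first, then TGF-β, then IL-4 and last the combination. The headings conflict with read counts that a supplementary table of the study lists for 8 WT libraries. Compared by which genes are at 0, all 8 of these libraries matched the column at their library-number position, with at least 99.85% of genes in the same state against at most 85.79% in any other column, and 2 of 8 matched their heading. Heading and order name a different culture for 16 of the 24 columns, although never a different genotype. The 4 columns of WT replicate 2 and the 12 KO columns have no such counts, so their culture rests on the order alone. With the columns read as headed, 0 of the 8 genes were called in any of the 16 comparisons made. That was also the share over all genes, with 0% called in each comparison except KO against WT in control (0.0724%).

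The cells carried the markers of their label. Summed RPKM (mapped reads normalized to library size and transcript length, a level per length) of 6 CD4 T cell genes was 1035.5 to 1374.7, and each of the 6 was detected in every library. *Tgfbr1* itself was 3.02 to 3.31 RPKM in WT control, 13.9 to 14.5 in WT TGF-β, 3.48 to 3.94 in WT IL-4 and 17.6 to 20.7 in WT cells with the combination. In KO cells it stayed between 2.32 and 5.18 in all 12 libraries, and the 3 KO control libraries (2.32 to 3.05) overlapped the WT control ones. An RPKM over the whole gene includes reads outside a deleted part, so these levels do not check the deletion. Markers of other cells also differed between groups. The sum over *S100a8*, *S100a9* and *Elane*, markers of neutrophils, was 4.94 to 14.5 RPKM in WT control, 42.8 to 69.2 in WT TGF-β, 16.9 to 43.4 in WT IL-4, 79.4 to 116.6 in WT cells with the combination and 0.305 to 17.4 in KO cells, and *S100a8* and *S100a9* were each at 0 in 3 libraries and *Elane* in 2. For the CD8 genes *Cd8a* and *Cd8b1* the sum was 24.8 to 26.9 in WT control, 16.6 to 17.3 in WT TGF-β and 29.9 to 36.3 in WT IL-4. In KO cells it was 14.3 to 16.7 without IL-4 and 26.3 to 28.3 with it. The 3 NK cell genes summed to 2.59 to 2.77 in WT control, 0.656 to 1.09 in WT TGF-β, 4.43 to 6.13 in WT IL-4 and 1.95 to 2.94 in WT cells with the combination. In KO cells they summed to 1.65 to 2.43 in control and 1.68 to 2.58 with TGF-β, and to 3.18 to 4.98 with IL-4 and 3.68 to 6.26 with the combination, so they were higher with IL-4 there too. The 6 macrophage and dendritic cell genes (*Emr1* and *Csf1r* each at 0 in 3 libraries) summed to 4.92 to 7.18 in WT control, 7.35 to 20.2 in WT TGF-β, 3.82 to 5.48 in WT IL-4, 8.79 to 18.6 with the WT combination and 1.35 to 11.8 in KO cells, with 1.35 to 2.9 in KO control. The sum of 4 B cell genes was 14.4 to 22.5 in WT control, 10.9 to 13.1 in WT TGF-β and 9.07 to 10.5 in KO control, within 7.89 to 33.3 over all libraries. For 4 mast cell and basophil genes it was 5.27 to 6.19 in WT control, 6.24 to 9.78 in WT TGF-β and 10.0 to 13.2 in KO control, within 4.09 to 13.2 over all libraries. The part of these cells in the results on the cytokines was not tested. In bulk RNA, fewer cells that make a cytokine and less of its RNA per cell cannot be told apart.

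Transcription of these cytokine genes follows the T cell receptor and CD28 through calcium and NFAT, AP-1 and NF-κB, which meet at short promoters and at enhancers further away. IL-2 is the growth and survival factor of activated T cells and acts through STAT5. IL-3 and GM-CSF, the product of *Csf2*, act on myeloid cells through receptors that share a β chain, IL-21 acts on B cells and T cells through the common γ chain, and TNF and lymphotoxin-α, the product of *Lta*, are related ligands of TNF receptors. LIF and oncostatin M, the product of *Osm*, belong to the IL-6 family and signal through gp130. TGF-β is known to restrain IL-2 production, and IL-4 acts through STAT6.

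The 8 genes lie in 4 neighbouring pairs of the mm9 genome, with 0 protein-coding genes between the partners in the GENCODE annotation. *Il2* (chr3:37019445-37024881, minus strand) lies 96.8 kb from *Il21* (chr3:37121681-37131540, minus strand). *Csf2* (chr11:54060773-54063169, minus strand) lies 15.6 kb from *Il3* (chr11:54078805-54080779, minus strand). *Tnf* (chr17:35336326-35338952, minus strand) and *Lta* (chr17:35340110-35342296, minus strand) are only 1.2 kb apart. *Osm* (chr11:4136423-4141029, plus strand) lies 16.5 kb before *Lif* (chr11:4157560-4172517, plus strand). The letters of 3 promoters and of 2 upstream sites where the DHS lists (DNase I hypersensitive sites) differ or are shared are given here because the chromatin results turn on them. Promoters are the 250 bases before the RefSeq start (RefSeq sequences of a later build, each found at exactly 1 place in mm9 for 7 of the 8 genes, all but *Osm*), and the other sequences are 200 bases of mm9 around the summit of a DHS of WT control. All are written 5′ to 3′ along the minus strand, and capitals mark the NFAT core GGAAA and the AP-1 site TGANTCA on either strand.
*Il2* promoter, chr3:37024877-37025126: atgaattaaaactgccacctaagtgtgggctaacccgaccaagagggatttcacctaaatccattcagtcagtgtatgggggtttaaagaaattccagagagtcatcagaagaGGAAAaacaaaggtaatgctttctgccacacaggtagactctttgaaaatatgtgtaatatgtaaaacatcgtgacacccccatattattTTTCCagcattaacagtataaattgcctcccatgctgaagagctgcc
*Il2* upstream DHS, chr3:37027277-37027476: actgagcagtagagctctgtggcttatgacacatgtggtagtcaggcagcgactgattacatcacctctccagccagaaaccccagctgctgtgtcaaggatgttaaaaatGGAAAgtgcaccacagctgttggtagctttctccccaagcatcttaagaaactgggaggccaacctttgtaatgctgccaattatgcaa
*Csf2* upstream DHS, chr11:54067754-54067953: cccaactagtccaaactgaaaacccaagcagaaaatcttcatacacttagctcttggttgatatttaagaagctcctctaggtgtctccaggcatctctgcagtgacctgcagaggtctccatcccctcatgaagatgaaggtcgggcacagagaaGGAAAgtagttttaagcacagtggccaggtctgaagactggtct
*Lta* promoter, chr17:35342297-35342546: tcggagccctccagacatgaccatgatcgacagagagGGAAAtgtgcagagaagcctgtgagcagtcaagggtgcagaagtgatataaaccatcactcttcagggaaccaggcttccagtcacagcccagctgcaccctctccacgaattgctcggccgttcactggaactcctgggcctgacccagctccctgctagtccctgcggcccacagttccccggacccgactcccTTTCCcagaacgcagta
*Tnf* promoter, chr17:35338953-35339202: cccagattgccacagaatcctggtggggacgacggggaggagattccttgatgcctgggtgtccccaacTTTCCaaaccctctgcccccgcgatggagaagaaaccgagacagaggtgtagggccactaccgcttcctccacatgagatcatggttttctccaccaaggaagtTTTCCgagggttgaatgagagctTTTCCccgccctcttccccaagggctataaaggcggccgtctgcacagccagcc

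In the 300 bases from 250 before to 50 after the start, the NFAT core occurred 2 times at *Il2*, 3 times each at *Il21*, *Csf2*, *Tnf* and *Lta*, and 1 time each at *Il3* and *Lif*. It is a short motif, present in 61.5% of 32544 RefSeq promoters of that length. The AP-1 site TGANTCA was found at *Lif* alone of the 7, against 7.8% of all promoters. TTCNNNGAA, the STAT motif, occurred 2 times at *Lta* and at none of the other 6 (8.3% of all promoters), and the STAT6 form of it, with 4 bases between TTC and GAA, 1 time each at *Lta* and *Il3* (7.0%). Of the matches printed in capitals, the *Lta* NFAT core 17 bases before the start overlaps a STAT motif.

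*Il2* mRNA separated all 4 WT cultures. WT control libraries held 76.6, 65.7 and 64.9 RPKM, those given TGF-β 10.3, 9.75 and 10.6, those given IL-4 113.3, 108.4 and 108.7, and those given the combination 40.3, 38.5 and 34.5. No libraries of different WT cultures overlapped, and IL-4 was highest, followed by control, the combination and TGF-β. KO control libraries held 71.0, 54.6 and 48.9, those given TGF-β 71.7, 62.0 and 54.5, those given IL-4 85.9, 72.4 and 80.8, and those given the combination 94.2, 61.7 and 72.4. All 12 KO libraries, whatever their culture, lay between 48.9 and 94.2 and so above every WT library with TGF-β. From the highest mean to the lowest, WT IL-4 stood apart, the next 5 groups (KO IL-4, the KO combination, WT control, KO TGF-β, KO control) overlapped in turn, and the WT combination and WT TGF-β stood apart below them.

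*Il3* RPKM was 13.6, 12.8 and 10.5 in WT control libraries, 2.84, 1.13 and 1.83 after TGF-β, 17.3, 20.4 and 20.5 after IL-4, and 1.95, 3.71 and 2.33 after the combination. Its neighbour *Csf2* stood at 5.10, 6.52 and 5.96, then 1.49, 1.00 and 1.78, then 10.2, 9.13 and 10.1, and 1.90, 2.47 and 2.92 in the same order of cultures. For each gene the IL-4 libraries were the highest and the libraries with TGF-β the lowest, without overlap with control. *Il3* in KO cells was 4.90, 3.81 and 2.26 in control, 5.61, 4.92 and 5.36 after TGF-β, 5.75, 5.53 and 4.79 after IL-4, and 8.38, 4.53 and 5.00 after the combination. *Csf2* in KO cells was 3.00, 2.34 and 3.11, then 2.61, 4.37 and 4.58, then 5.06, 4.60 and 5.01, and 6.04, 5.33 and 4.50 in the same order of cultures. The 12 KO libraries spanned 3.71-fold for *Il3* and 2.59-fold for *Csf2*, against 18.1-fold and 10.1-fold in the 12 WT libraries.

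*Lta* had the highest mean of the 8 genes in 5 of the 8 groups, and *Il2* in the other 3, which are WT IL-4, KO IL-4 and the KO combination. *Lta* was 179.8, 167.9 and 173.9 RPKM in WT control libraries, 331.6, 317.0 and 337.6 after TGF-β, 81.8, 73.6 and 84.9 after IL-4, and 173.7, 180.4 and 162.3 after the combination. Here TGF-β was the highest culture and IL-4 the lowest, and the libraries of control and the combination overlapped. In KO cells *Lta* was 74.5, 72.3 and 67.6 in control, 79.1, 81.7 and 79.3 after TGF-β, 23, 27.0 and 26.2 after IL-4, and 26, 23.2 and 27.7 after the combination. *Tnf*, next to *Lta*, was 24.2, 22.5 and 20.2 in WT control libraries, 17.2, 16.9 and 14.5 after TGF-β, 20.1, 19.1 and 17.8 after IL-4, and 16.8, 18.1 and 16.4 after the combination. In KO cells *Tnf* was 13.4 to 17.8 without IL-4 and 7.67 to 10.0 with it.

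*Il21* had the lowest mean of the 8 genes in all 8 groups, and *Lif* and *Osm* were the other genes below 10 RPKM in every library. *Lif* was 3.01, 2.97 and 3.26 RPKM in WT control libraries, 1.88, 1.60 and 1.47 after TGF-β, 3.89, 4.13 and 3.84 after IL-4, and 1.95, 1.61 and 1.75 after the combination. Its 12 KO values ranged from 0.988 to 3.12. *Osm* was 9.24, 9.32 and 8.13 in WT control and 6.34 to 8.55 in the other 9 WT libraries. The 12 KO libraries of *Osm*, at 3.92 to 5.35, lay below all 12 WT libraries, which holds under either reading of the columns. *Il21* was 1.1, 2.42 and 3.09 in WT IL-4, 0.130 to 1.29 in the other WT libraries and 0.00953 to 0.246 in the KO libraries, and it passed the filter of a mean of at least 1 RPKM only in comparisons that include WT IL-4.

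**Figure D1:**
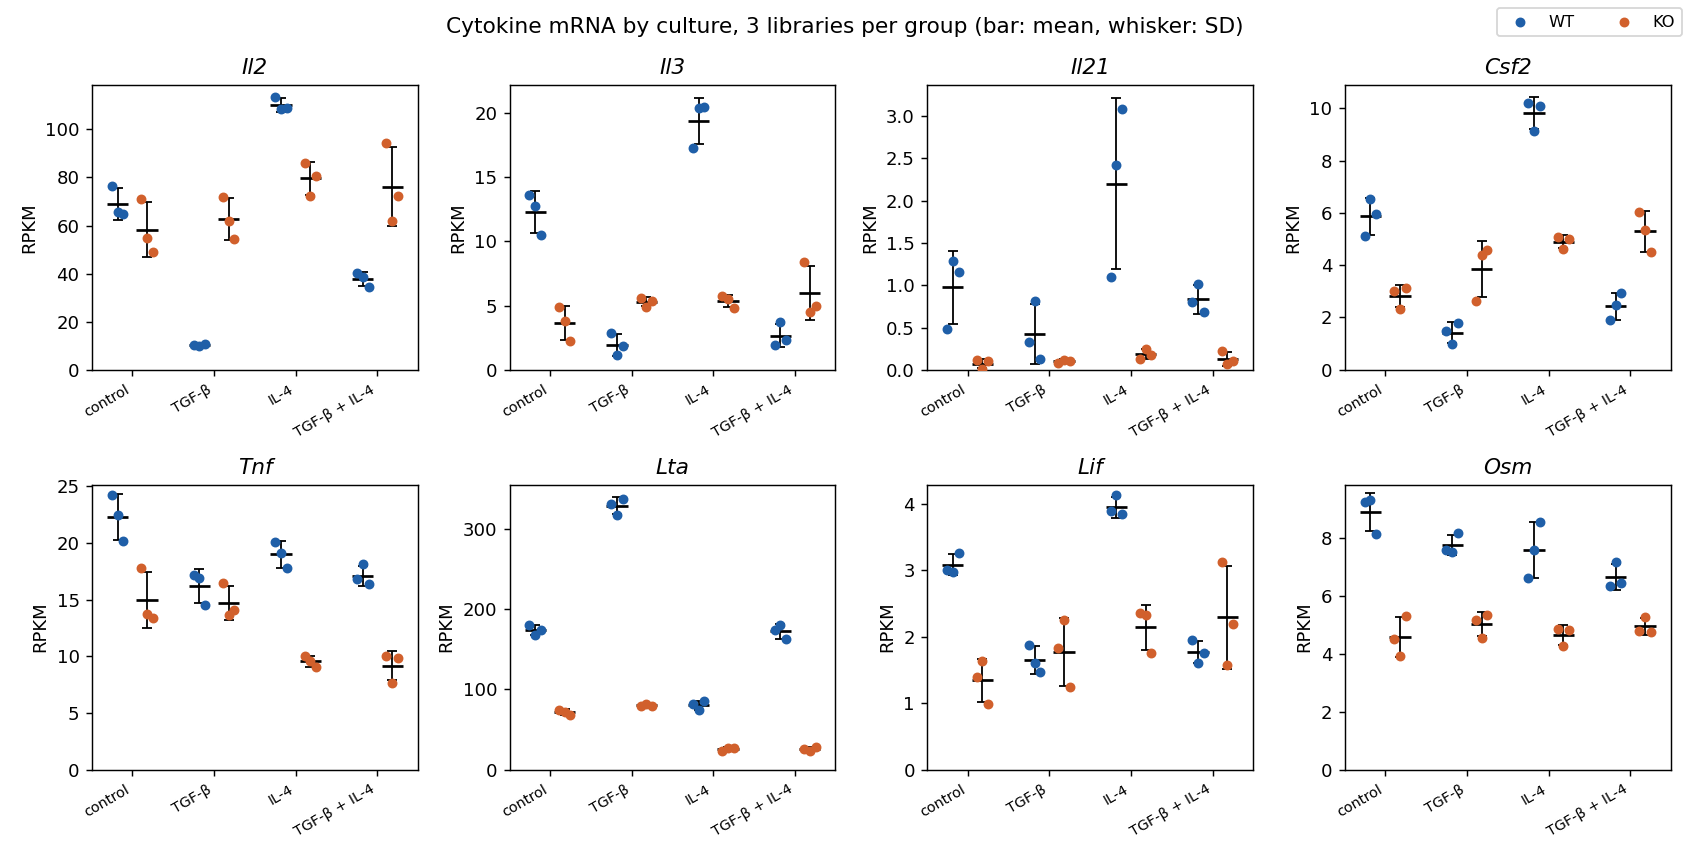
RPKM (y axis) of each of the 8 genes in the 4 cultures (x axis), with each library as a point, WT in blue and KO in orange, the mean as a bar and the SD over 3 libraries as a whisker. For *Il2*, the WT TGF-β libraries sit at 9.75 to 10.6 and all 12 KO libraries at 48.9 to 94.2, whereas for *Lta* the WT TGF-β libraries are the highest at 317.0 to 337.6.

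TGF-β alone lowered *Il2*, *Il3*, *Csf2* and *Lif* in WT cells and raised *Lta*. *Il2* fell from 69.0 ± 6.54 to 10.2 ± 0.444 RPKM (mean ± SD, n = 3 each), which is 6.76-fold lower. Of 7 genes tested, 4 fell and 1 rose, where a gene was called at an adjusted p under 0.01 and a fold over 1.5. On the scale of log2(RPKM + 1), which understates changes of low genes, *Il2* fell by 2.64 (SE 0.07, adjusted p = 7.38e-07), *Il3* by 2.21 (SE 0.20, adjusted p = 0.000181), *Csf2* by 1.51 (SE 0.13, adjusted p = 0.000158) and *Lif* by 0.62 (SE 0.08, adjusted p = 0.00107). *Lta* rose by 0.92 (SE 0.05, adjusted p = 9.36e-06). *Tnf* missed the threshold at −0.44 (adjusted p = 0.0104) although its groups did not overlap, and *Osm* was at −0.17 (adjusted p = 0.138). Among all genes tested, 5.71% were called. The same 5 genes were called with WT replicates 1 and 3, the libraries that the read counts identify. *Lif* missed the threshold without replicate 1 (−0.70, adjusted p = 0.0155) or replicate 3 (−0.54, adjusted p = 0.0139).

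IL-4 alone moved *Il2* and *Lta* the other way. *Il2* rose from 69.0 ± 6.54 to 110.1 ± 2.78 RPKM, by 0.67 on the log2 scale (SE 0.07, adjusted p = 0.00103), and *Csf2* from 5.86 ± 0.719 to 9.82 ± 0.599, by 0.66 (SE 0.09, adjusted p = 0.00498). *Lta* fell from 173.9 ± 5.99 to 80.1 ± 5.85 RPKM, by 1.11 (SE 0.06, adjusted p = 7.39e-05). *Il3* was at 0.62 (adjusted p = 0.0118), and *Il21*, *Tnf*, *Lif* and *Osm* were at 0.67, −0.22, 0.28 and −0.21 with adjusted p from 0.0604 to 0.308. So 3 of 8 genes tested were called, against 1.29% of all genes. *Csf2* lost its call without any 1 of the replicates (0.55 to 0.78, adjusted p = 0.0104 to 0.103) and with the replicate number as a block (0.66, adjusted p = 0.0238). *Il2* lost it without replicate 1 (0.73, adjusted p = 0.0143) or replicate 2 (0.65, adjusted p = 0.0146), and *Lta* without replicate 1 (−1.1, adjusted p = 0.0106). Only *Lta* was therefore called in the libraries that the read counts identify. Over all genes 0.755% were called in those libraries, and 0.124% to 1.09% with 1 replicate left out.

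With the combination, *Il2*, *Il3* and *Csf2* stood below control in WT cells while *Lta* stood at its control level. *Il2* was 37.8 ± 2.96 RPKM and fell by 0.85 against control (SE 0.08, adjusted p = 4.39e-05), *Il3* fell by 1.88 (SE 0.16, adjusted p = 3.22e-05) and *Csf2* by 1.01 (SE 0.12, adjusted p = 0.000211). *Lif* (−0.56), *Osm* (−0.37) and *Tnf* (−0.36) passed the p threshold but not the fold on the log2(RPKM + 1) scale. By mean RPKM *Lif* was 1.74-fold lower without overlap, and the added 1 shrinks the change of such a low gene. *Lta* was at −0.02 with a 95% interval of −0.14 to 0.11. This makes 3 of 7 genes tested, against 9.27% of all genes, and the same 3 were called with replicates 1 and 3.

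Adding IL-4 to TGF-β raised *Il2* 3.7-fold, by 1.79 on the log2 scale (SE 0.07, adjusted p = 1.25e-06), and lowered *Lta* by 0.93 (SE 0.05, adjusted p = 6.14e-06). *Il3* was at 0.33 (adjusted p = 0.310) and *Csf2* at 0.50 (adjusted p = 0.0345), so 2 of 7 were called against 3.03% of all genes. Adding TGF-β to IL-4 lowered *Il2* by 1.52, *Il3* by 2.50, *Csf2* by 1.67 and *Lif* by 0.84 and raised *Lta* by 1.1 (adjusted p from 2.74e-07 to 4.53e-05). That is 5 of 8 against 9.28%. Whether one cytokine's change depends on the other was tested as an interaction. For *Il2* the change with TGF-β was 1.12 higher (less negative) when IL-4 was present (SE 0.10, adjusted p = 7.26e-05). Without replicate 1 it was 1.02 higher with an adjusted p of 0.0163, in a fit that called 0% of all genes. With all libraries, none of the other 7 genes was called (unadjusted p under 0.05 for *Tnf* at 0.29 and *Lta* at 0.18), against 1.77% of all genes. For *Lta* the change with the combination was thus 0.18 above the sum of the opposite changes with TGF-β and with IL-4, with a 95% interval of 0.0046 to 0.36.

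**Figure D2:**
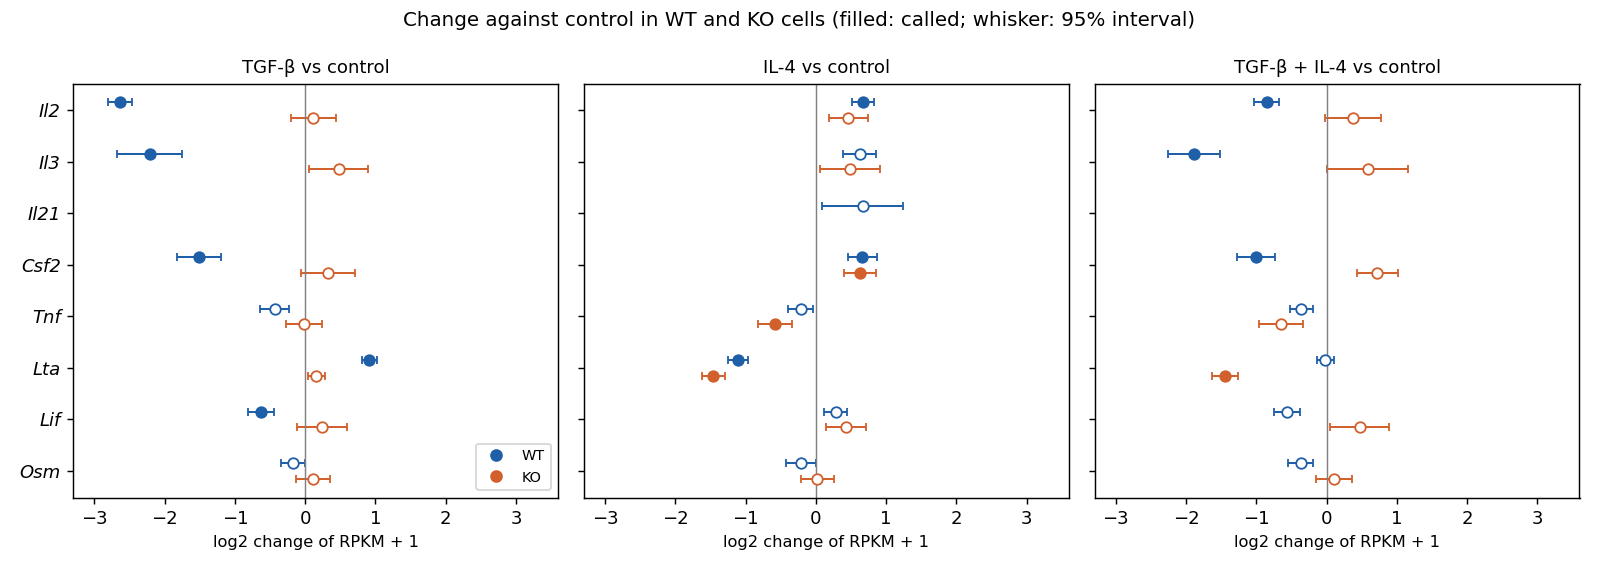
Change of log2(RPKM + 1) against control (x axis) for each gene (y axis) with TGF-β, IL-4 or the combination, WT in blue and KO in orange, filled where called, with 95% intervals from limma. In WT cells with TGF-β, *Il2* lies at −2.64 and *Lta* at 0.92, and in KO cells with TGF-β none of the 7 genes tested is filled.

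In KO cells TGF-β alone gave no call among these genes. *Il2* was 58.2 ± 11.5 RPKM in control and 62.7 ± 8.66 with TGF-β, a change of 0.12 on the log2 scale with a 95% interval of −0.20 to 0.43. *Il3* was at 0.48, *Csf2* at 0.33, *Lif* at 0.24, *Lta* at 0.16, *Osm* at 0.12 and *Tnf* at −0.02. Of the 7 tested, 0 were called by limma and 2 (*Il3* and *Lta*, each higher) had an unadjusted p under 0.05, while 0.0105% of all genes were called, which is 1 gene. The difference between the genotypes in this change was then tested. The change with TGF-β was higher in KO than in WT cells by 2.75 for *Il2* (SE 0.18, adjusted p = 6.08e-07), 2.69 for *Il3* (SE 0.31, adjusted p = 8.26e-05), 1.83 for *Csf2* (SE 0.24, adjusted p = 0.000206) and 0.86 for *Lif* (SE 0.19, adjusted p = 0.00882). It was lower by 0.75 for *Lta* (SE 0.07, adjusted p = 1.04e-05). These 5 of 7 compare with 4.71% of all genes. *Lif* lost its call without any 1 of the replicates (0.82 to 0.93, adjusted p = 0.0130 to 0.122).

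In KO cells IL-4 lowered *Lta* and *Tnf* and raised *Csf2*. *Lta* fell from 71.5 ± 3.53 to 25.4 ± 2.15 RPKM, by 1.46 (SE 0.07, adjusted p = 4.36e-06), *Tnf* from 15 ± 2.47 to 9.56 ± 0.501, by 0.59 (SE 0.11, adjusted p = 0.00985), and *Csf2* rose from 2.81 ± 0.417 to 4.89 ± 0.251, by 0.63 (SE 0.10, adjusted p = 0.00468). *Il2* was at 0.46 (adjusted p = 0.0598). That is 3 of 7 against 2.51% of all genes, and *Tnf* and *Csf2* lost their calls without any 1 of the replicates (adjusted p = 0.0192 to 0.0586). With all libraries kept, *Tnf* also missed the threshold under median-ratio scaling (adjusted p = 0.0124), quantile normalization (adjusted p = 0.0141), no trend (adjusted p = 0.0148) and no filter on low values (adjusted p = 0.0492), and *Csf2* under the last (adjusted p = 0.0314). No difference between genotypes in the change with IL-4 was called for any of the 7, with 0.0414% of all genes called, although *Lta* (−0.35) and *Tnf* (−0.37) had unadjusted p of 0.0039 and 0.0219. For *Il2* the interval of that difference was −0.56 to 0.14.

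With the combination, KO cells held *Lta* at 25.6 ± 2.28 RPKM, 1.45 below KO control (SE 0.08, adjusted p = 3.36e-05). It was the 1 gene of 7 called, against 1.92% of all genes. *Csf2* at 0.72 (adjusted p = 0.0163) and *Tnf* at −0.65 (adjusted p = 0.0346) were past the looser threshold of 0.05. The difference between genotypes in the change with the combination was called for 5 of 7 genes, against 4.18% of all genes. It was 1.23 for *Il2* (adjusted p = 0.00248), 2.46 for *Il3* (adjusted p = 0.000532), 1.73 for *Csf2* (adjusted p = 8.27e-05), 1.04 for *Lif* (adjusted p = 0.00691) and −1.43 for *Lta* (adjusted p = 1.3e-06). Without replicate 3, *Il2* (1.12, adjusted p = 0.0768), *Il3* (2.36, adjusted p = 0.0184) and *Lif* (0.90, adjusted p = 0.159) missed the threshold, and *Lif* did so without replicate 1 (0.94, adjusted p = 0.0820) and with the block (1.04, adjusted p = 0.0207).

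KO and WT cells also differed without added cytokine, and in control cultures every call was lower in KO. *Lta* was 173.9 ± 5.99 RPKM in WT and 71.5 ± 3.53 in KO control, a log2 change of −1.27 (adjusted p = 1.21e-05). *Il3* was at −1.55 (adjusted p = 0.00221), *Csf2* at −0.85 (adjusted p = 0.00235), *Osm* at −0.83 (adjusted p = 0.00178) and *Lif* at −0.81 (adjusted p = 0.00277). *Il2* was at −0.26 (adjusted p = 0.225) and *Tnf* at −0.55 (adjusted p = 0.0177). Thus 5 of 7 genes were called, against 2.46% of all genes. The count fell to 1 (*Lta*) without replicate 1, where *Il3* was at −1.67 (adjusted p = 0.0123), *Csf2* at −0.97 (adjusted p = 0.0202), *Lif* at −0.84 (adjusted p = 0.0513) and *Osm* at −0.80 (adjusted p = 0.0509). It was 2 without replicate 2, where *Il3* (adjusted p = 0.0131), *Csf2* (adjusted p = 0.0117) and *Osm* (adjusted p = 0.0115) missed the threshold, and 2 with the replicate number as a block. The share of all genes called was 0.633% without replicate 1, 2% without replicate 2 and 1.66% with the block.

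Under IL-4 alone the KO libraries were lower for 7 of the 8 genes tested, against 2.99% of all genes called. *Lta* was at −1.62, *Il3* at −1.68, *Il21* at −1.38, *Tnf* at −0.92, *Csf2* at −0.88, *Lif* at −0.66 and *Osm* at −0.60 (adjusted p from 6.8e-06 to 0.00418). *Il21* was 1.1 to 3.09 RPKM in WT and 0.129 to 0.246 in KO. It passed the filter only through the WT libraries, so only a lower level in KO could have been called. Its place among the 7 is therefore no independent result. *Il2* at −0.46 passed the p threshold (adjusted p = 0.00198) but not the fold. The count was 5 without replicate 1, where *Lif* (adjusted p = 0.0281) and *Osm* (adjusted p = 0.0153) were lost. It was 4 without replicate 2 or replicate 3, where the same 2 genes were lost and *Il21* was lost (adjusted p = 0.0268) or did not pass the filter on low values. With the replicate block *Osm* was at an adjusted p of 0.0150. The share of all genes called was 1.61% without replicate 1, 2.66% without replicate 2, 1.13% without replicate 3 and 2.35% with the block.

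Under TGF-β *Il2*, *Il3* and *Csf2* were higher in KO than in WT. In control cultures *Il3* and *Csf2* had been called lower in KO, and *Il2* had not been called. *Il2* was 10.2 ± 0.444 RPKM in WT and 62.7 ± 8.66 in KO, 2.50 higher on the log2 scale (SE 0.09, adjusted p = 3.28e-07), *Il3* was 1.14 higher (adjusted p = 0.00167) and *Csf2* 0.99 higher (adjusted p = 0.00321). *Lta* was 2.02 lower in KO (a change of −2.02, adjusted p = 2.26e-08), so 4 of 7 were called against 9.68% of all genes. *Csf2* lost its call without replicate 2 (0.77, adjusted p = 0.0130) or replicate 3 (0.98, adjusted p = 0.0174), and *Il3* without replicate 3 (1.13, adjusted p = 0.0225).

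Under the combination, *Il2* was 0.97 higher in KO (adjusted p = 0.0015) and *Csf2* 0.88 higher (adjusted p = 0.00229), whereas *Tnf* was at −0.84 (adjusted p = 0.000715) and *Lta* at −2.70 (adjusted p = 3.9e-07). *Lta* was 172.2 ± 9.12 RPKM in WT and 25.6 ± 2.28 in KO, which is 6.72-fold lower. These 4 of 7 compare with 8.44% of all genes. *Il3* was 0.92 higher in KO but missed the threshold (adjusted p = 0.0187), although its groups did not overlap. *Il2* (0.94, adjusted p = 0.0371) lost its call without replicate 3, and *Tnf* (−0.92) and *Csf2* (0.68 and 1.07) lost theirs without replicate 1 (adjusted p = 0.0160 and 0.0339) or replicate 3 (adjusted p = 0.0170 and 0.0116). With the block *Csf2* was at an adjusted p of 0.0106. All comparisons of KO with WT share their libraries with the comparisons against control, and they carry the treatment of the mice with them.

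**Figure D3:**
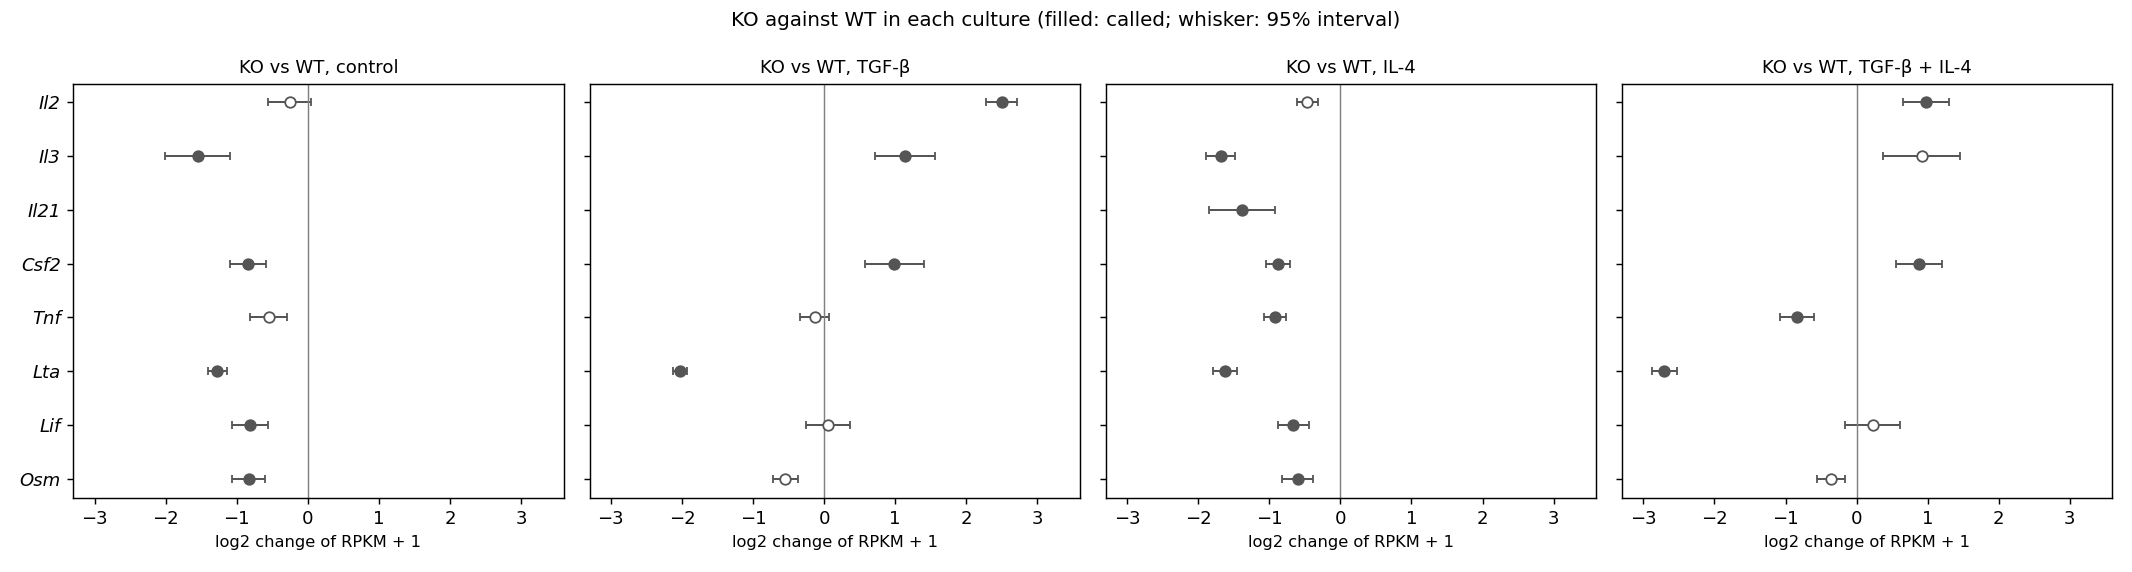
KO against WT as a change of log2(RPKM + 1) (x axis) for each gene (y axis) in the 4 cultures, filled where called, with 95% intervals from limma. *Lta* lies below 0 in every culture, from −1.27 in control to −2.70 with the combination, and *Il2* moves from −0.26 in control to 2.50 in TGF-β.

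The DNase-seq lists hold 44298 DHSs for WT control and 33880 for the WT combination, and 33665 and 27145 for the same cultures of KO cells. Within 10 kb of the 8 genes they hold 27, 16, 17 and 15 distinct DHSs in that order. With 1 library per condition and no read counts, depth is unknown and no difference between the lists could be tested. A DHS absent from a list was not called there, and the site may still be open.

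At *Il2*, a DHS over the promoter was called in WT control only (chr3:37024721-37025341, 3.89-fold enriched over the local background). Its summit lies 67 bases before the annotated start, and it spans the printed *Il2* promoter with the 2 NFAT cores, 137 and 47 bases before the RefSeq start. An upstream DHS about 2.5 kb before the start was called in WT control (chr3:37027119-37027622, 7.97-fold), KO control (4.08-fold) and the KO combination (4.29-fold), and not in the WT combination. Its summit window, printed above, holds 1 NFAT core and no AP-1 site, which 52.1% and 15.7% of the summit windows of 7941 WT control DHSs on the 3 chromosomes of these genes hold. A further site about 8.3 kb before the start was called in all 4 lists, at 4-fold to 5.43-fold. The culture in which the upstream site was not called is the one of the 4 with the lowest *Il2* mRNA, 37.8 RPKM against 58.2 to 76.1. The promoter DHS, in contrast, was not called in the KO combination, which is the highest of the 4 at 76.1 RPKM. A link between these sites and the mRNA was not tested.

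The shared *Il3* and *Csf2* locus held 1 DHS in all 4 lists, between the genes and about 7.5 kb before *Csf2*, at 6.83-fold in WT control and 4.15-fold to 5.37-fold in the others. A DHS over the annotated start of *Csf2* was called in WT control only (chr11:54062841-54063311, 4.66-fold). It does not reach the RefSeq promoter window, whose start lies 232 bases further upstream. The printed *Csf2* upstream site, about 4.7 kb before the start, was called in the control lists only, at 5.00-fold in WT and 3.76-fold in KO. A DHS past the end of *Il3*, 2.5 kb after its start, was called in WT control (4.70-fold) and the WT combination (3.42-fold) and in neither KO list. No list held a DHS over the *Il3* promoter.

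The *Tnf* and *Lta* starts each carried a DHS in all 4 lists. For *Tnf* the fold enrichment was 4.76 in WT control cells, 3.71 with the combination, and 4.62 and 3.92 in the KO lists in that order. For *Lta* it was 2.86 and 4.19 in WT and 3.20 and 2.85 in KO, and the last of these DHSs ended at the start without reaching the printed promoter. The tallest DHS near these genes lay about 5 kb before *Lta*, at 11.6-fold, 11.0-fold, 8.78-fold and 9.59-fold. At *Lif* the promoter carried no DHS in any list and an intronic DHS about 1.4 kb after the start was called in all 4. At *Osm* a DHS over the first exon was called in 3 lists and not in the KO combination. *Il21* had no DHS over its promoter, and 1 past its end in 3 lists, all but KO control.

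**Figure D4:**
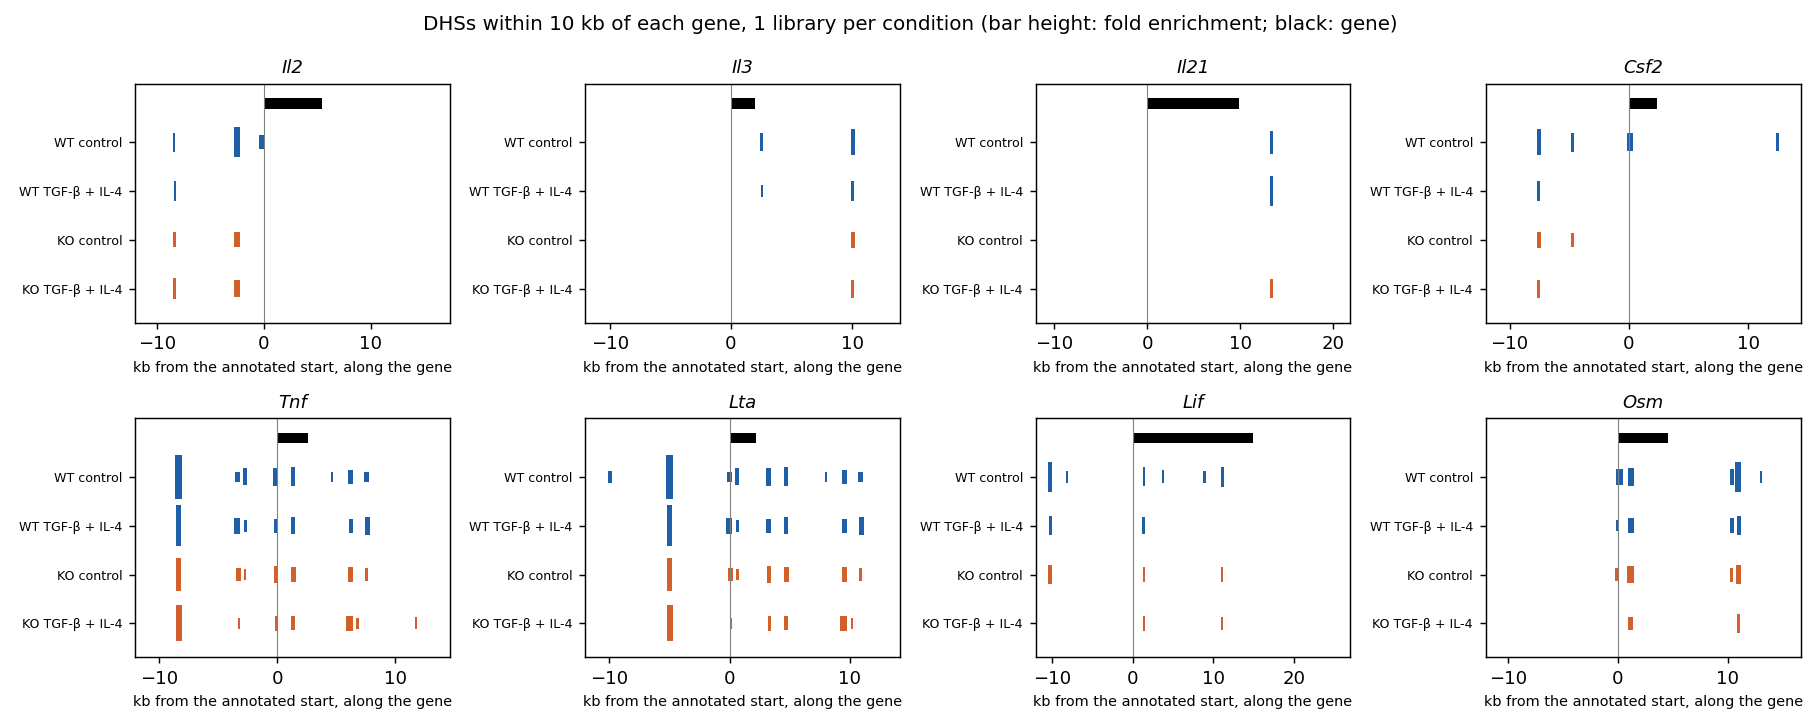
DHSs within 10 kb of each gene by distance in kb from the annotated start along the gene (x axis) in the 4 lists (rows), WT in blue and KO in orange, with bar height as fold enrichment over the background and the gene in black. At *Il2* the bar over the start appears in WT control only and the bar near −2.5 kb is missing in the WT combination, while *Lta* and *Tnf* carry bars at their starts in all 4.

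Receptors and other genes of T cell activation give the surroundings of these changes. Of 14 receptor genes for these cytokines, 11 were tested for the combination against control in WT cells, 5 rose and 0 fell, with a median log2 change of 0.49 against 0.03 over all genes, of which 9.27% were called. *Csf2rb* and *Csf2rb2*, near-identical β chains whose reads may be split, were at 0.74 and 0.71, *Il6st*, which encodes gp130, at 0.72 and *Tnfrsf1b*, a receptor of TNF and lymphotoxin-α, at 0.71 (adjusted p from 1.53e-05 to 0.00188). In KO cells limma called 0 of 10 with the combination, against 1.92% of all genes, and *Csf2rb* stood at 0.56 (adjusted p = 0.0187). Of 13 other activation genes, all tested, TGF-β lowered 7 in WT cells and raised 0, against 5.71% of all genes called. In KO cells limma called 0 of 13, where 0.0105% of all genes were called. *Gzmb*, the cytotoxic protease granzyme B, fell from 230.0 ± 32.0 to 24.9 ± 2.35 RPKM with TGF-β in WT, by 3.15 on the log2 scale (adjusted p = 1.46e-06), while KO libraries averaged 103.4 ± 10.5 without and 109.1 ± 4.34 with TGF-β. The chemokine genes *Ccl3* and *Ccl4* fell by 1.89 and 1.32, and *Tnfrsf9*, a costimulatory receptor, by 0.87 (adjusted p from 3.2e-06 to 7.81e-06). For 7 of the 13 the change with TGF-β was higher in KO than in WT cells and for 0 lower, against 4.71% of all genes called.

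Of 13 other T cell cytokine genes, 8 passed the filter. With TGF-β in WT cells 2 rose (*Il17f* by 2.36 and *Il9* by 2.08) and 2 fell (*Ifng* at −1.92 and *Il22* at −1.53), against 5.71% of all genes called. With the combination the same 4 were called, at 0.59, 1.75, −1.14 and −1.78, against 9.27% of all genes. *Il9* was 40.1 to 45.9 RPKM with TGF-β alone and lower, at 33.6 to 36.1, with the combination. That change was −0.33 (adjusted p = 0.00629 by limma), with a fold under 1.5. *Il22* was 3.55 to 5.56 RPKM in WT control, 0.477 to 1.35 with TGF-β and 0.532 to 0.763 with the combination. It passed the filter through the control libraries, so only a fall could have been called for it. Among 29 transcription factor genes of T cell activation, 25 were tested for the combination in WT cells. Of these, 7 rose and 1 fell, where 9.27% of all genes were called. *Ikzf3* (1.47), *Jun* (1.07) and *Maf* (1.02) were higher, and *Nr4a2*, an orphan nuclear receptor induced by the T cell receptor, was lower (−1.04). *Maf*, at 0.394 to 0.476 RPKM in control and 1.74 to 2.19 with the combination, passed the filter only through the latter. Only a rise could have been called for it. Of 9 STAT5 target genes, which respond to IL-2 among other cytokines, 4 rose and 1 fell with the combination in WT cells, against the same 9.27%. *Socs2* was at 1.73, *Socs1* at 0.89, *Bcl2* at 0.87 and *Pim2* at −0.83. With TGF-β alone, where *Il2* was lowest, 1 rose (*Socs2*, from 11.8 ± 1.33 to 77.3 ± 1.12 RPKM) and 1 fell of the 9. The list median was −0.04, and 5.71% of all genes were called.

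Likeness of pattern was measured as Pearson's r of log2(RPKM + 1) over the 24 libraries, which share cultures and replicate numbers. It is given as a description for the 7 genes with a mean of at least 1 RPKM over the 24 libraries, which leaves out *Il21*. Nearest to *Il2* were *Tg* (r = 0.945), *Sla* (r = 0.944) and *Hpcal1* (r = 0.930). *Sla* lies inside *Tg* on the opposite strand, and without strand in the library their reads cannot be told apart. *Gzmb* was nearest to both *Il3* (r = 0.885) and *Csf2* (r = 0.928). *Lta* was most like *Emp3* (0.962), *Lgals1* (0.959) and *Pdcd1* (0.958), *Tnf* like *Pdzk1ip1* (0.886), *Xcl1* (0.877) and *Gpr171* (0.864), *Lif* like *Rmi2* (0.872), *Tbx21* (0.833) and *Fads2* (0.822), and *Osm* like *Cldnd1* (0.923), *Ly6a* (0.913) and *Klf6* (0.911). After *Gzmb* came *Etv6* (0.883) and *Hk2* (0.843) for *Il3* and *Map3k8* (0.870) and *Crabp2* (0.870) for *Csf2*. Between neighbours on the chromosome r was 0.90 for *Il3* and *Csf2*, 0.78 for *Tnf* and *Lta*, 0.40 for *Lif* and *Osm* and 0.17 for *Il2* and *Il21*. The last of these rests on low values, as *Il21* had a median of 0.232 RPKM and did not pass the filter. Between *Il2* and *Lta* r was −0.69.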

How the data were processed

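Per the labels and the study's methods, the authors aligned reads with Bowtie2 to mm9, dropped poorly mapped and duplicate ones, computed RPKM with edgeR (deposited as 1 table of 24 libraries) and called DHSs per library as MACS narrow peaks. The deposited lists give fold enrichment (a ratio) and −log10 q. RPKM columns were read by library-number order, as the report states. The lowest values gave relative depths of 0.794 to 1.66 (median 1.17), and read totals are unknown. No column belongs to another series.

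Groups were compared with limma 3.58.1 in R 4.3.3 on log2(RPKM + 1), a pseudocount of 1, with a trend, for genes whose RPKM averaged 1 or more over the fitted libraries. A count model was not used because RPKM are not counts. p-values were Benjamini-Hochberg adjusted over all genes tested, and a gene was called under 0.01 with a fold over 1.5. The method was tested on simulated data. DHSs were counted within 10 kb of each gene, and overlap meant at least 1 base, with Python 3.11.15 and pandas 2.3.3. Figures used matplotlib 3.10.9. Promoter letters are RefSeq's, matched to mm9. The members and lists were chosen with earlier results of these data known. The text names all 8 genes, up to 4 called genes per list with the largest change for TGF-β + IL-4 against control in WT, and the 3 genes most like each member whose mean over all libraries passed the filter.

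Nothing states that libraries of a group came from separate mice or cultures beyond the replicate number, so p-values measure the spread between these libraries. The labels number the libraries within a genotype and do not state that a number stands for 1 mouse. Deviations of libraries of 1 number and genotype correlated between −0.089 and 0.553 in WT and between −0.297 and 0.415 in KO. A fit with the replicate block was an alternative. Others were another pseudocount, filter, scaling, threshold or fit, the headings, and each replicate left out.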

Additional observations from a re-analysis of the deposited data

Results flagged for a closer look

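These results were listed because a test found the effect of one condition to differ between groups. The change with TGF-β differed between KO and WT cells, on the log2(RPKM + 1) scale, by 2.75 for *Il2*, 2.69 for *Il3*, 1.83 for *Csf2*, −0.75 for *Lta* and 0.86 for *Lif*. The change with TGF-β + IL-4 differed between KO and WT cells by 1.23 for *Il2*, 2.46 for *Il3*, 1.73 for *Csf2*, −1.43 for *Lta* and 1.04 for *Lif*. In WT cells the change of *Il2* with TGF-β differed by 1.12 between cultures with and without IL-4. All were called by limma at the thresholds used in the report, and the KO columns and the tamoxifen treatment limit them as stated there.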

How the results depend on the processing

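With the columns read as headed, 0 of the 8 genes were called in all 16 comparisons and the interaction of TGF-β with IL-4 turned to −0.30 for *Il2*. Over all genes 0% were called as well, except 0.0724% for KO against WT in control. For TGF-β against control in WT, a minimum of 5 RPKM left 3 calls in place of 5 (5.04% of all genes). That minimum left 3 calls for KO against WT in control (2.22%), 2 in TGF-β (8.71%), and 3 each for the 2 called interactions with genotype (4.21% with TGF-β, 4.26% with TGF-β + IL-4). Without a filter, 1 call was left for IL-4 in KO (0.943%), 1 for KO against WT in control (0.962%) and 4 in IL-4 (0.908%). All 24 libraries in one fit (2.86%), or an adjusted p under 0.05 (2.56%), gave 3 calls for TGF-β + IL-4 in KO. The replicate block left 2 calls for KO against WT in control (1.66%) and was otherwise within 1.5 times of each count. With the 8 identified WT libraries, IL-4 against control had 1 call (0.755%). Leaving out 1 replicate gave 0 to 2 calls for IL-4 in WT, 1 for IL-4 in KO, 0 to 1 for TGF-β by IL-4, 2 to 5 for genotype by TGF-β + IL-4, and, for KO against WT, 1 to 5 in control, 2 to 4 in TGF-β, 4 to 5 in IL-4 and 1 to 5 in TGF-β + IL-4. Over all genes, in the same order, these fits called 0.124% to 1.09%, 1.26% to 1.84%, 0% to 0.929% and 1.23% to 5.27%. For KO against WT they called 0.633% to 2.57%, 7.87% to 11%, 1.13% to 2.66% and 3.4% to 11.2%. The cause of the changes in these counts was not tested. Fewer libraries or genes entered the fit with a replicate left out, with the 8 identified WT libraries and with a minimum of 5 RPKM. Median-ratio scaling, quantile normalization, no trend and a pseudocount of 0.1 kept every count within 1.5 times, although *Tnf* lost its call for IL-4 in KO under the first 3, as the report gives, *Il21* its call for KO against WT in IL-4 under quantile normalization (−1.16, adjusted p = 0.01 after rounding), and *Lif* its call for genotype by TGF-β with the last (1.24, adjusted p = 0.0150). Windows of 2 kb gave 14, 8, 8 and 6 DHSs, and windows of 50 kb gave 70, 50, 55 and 45, in the order of the lists in the report.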
